A study of Mus musculus with 12 samples.

Results

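The peaks described here belong to 9 genes that encode transcription factors or cofactors of the hematopoietic stem cell (HSC) program: Tal1, Lyl1, Lmo2, Ldb1, Meis1, Mecom, Hlf, Gfi1 and Gfi1b. They were chosen by name. Every peak of the annotated master peak-list whose Gene Name, the gene with the nearest transcription start site (TSS), was one of these genes was taken, whatever its class or distance. This gave 101 of 84243 peaks, for 9 of the 19040 genes with a peak.

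The assay was ATAC-seq, which maps accessible DNA as the places where a transposase can insert sequencing adapters. The study compared accessibility in HSCs with that in 5 unipotent or mature blood cell types, with 2 replicates for each of the 6 cell types and 12 samples in all. All cells were sorted from wild-type C57BL/6 mice aged 8 to 12 weeks. The deposited table is the master peak-list, which the authors pooled over all samples. HSCs were sorted from bone marrow as cKit+ Lin- Sca1+ Flk2- Slamf1+ cells and megakaryocyte progenitors (MkPs) as cKit+ Lin- Sca1- Slamf1- CD41+ cells. Erythroid progenitors (EPs) were CD71+ with variable Ter119, granulocyte/macrophages (GMs) were Gr1+ Mac1+ and B cells were B220+ CD43-, all from marrow. T cells were CD3+ CD25- and are labeled as thymus. No cell type is recorded for a peak, and there are no reads per sample. A peak therefore shows that a region was accessible in at least some of the sorted cells, not that it was accessible in HSCs. Depth is unknown, and no level, replicate error or test between cell types can be given.

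TAL1 and LYL1 are basic helix-loop-helix proteins that pair with E proteins and bind E-box DNA. LMO2 is a LIM-domain adaptor without DNA binding of its own, and LDB1 is the dimerizing protein that joins LMO2 complexes and brings distant sites together, often at GATA motifs. MEIS1 is a homeodomain partner of HOX proteins, MECOM (EVI1) a zinc finger protein needed for HSC maintenance, and HLF a PAR-type leucine zipper protein with expression concentrated in HSCs. GFI1 and GFI1B are related zinc finger repressors that act through LSD1 and CoREST, the first prominent in HSCs, myeloid and lymphoid cells and the second in erythroid and megakaryocytic cells. Several of these genes are read from distal enhancers that carry GATA, ETS, RUNX and E-box motifs and are named by their distance in kb from the promoter.

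The sequences below are the central 200 bases of 5 peaks at elements of Tal1, Lmo2 and Meis1, shown because they differ in the motif strings they hold. They are from the GRCm38 (mm10) plus strand, 5′ to 3′. Capitals mark matches on either strand. The strings marked are AGATAA for the GATA family, AGGAAG for the ETS family, TGACAG for the MEIS family, and the E-box with GATA, which is CANNTG followed by a spacer of 7 to 9 bases and then the letters of the GATA core. The Tal1 elements lie at chr4:115052568-115052767 and chr4:115095806-115096005. The Lmo2 elements lie at chr2:103945058-103945257 and chr2:103957750-103957949, and the Meis1 element at chr11:18970052-18970251.
Tal1 -4: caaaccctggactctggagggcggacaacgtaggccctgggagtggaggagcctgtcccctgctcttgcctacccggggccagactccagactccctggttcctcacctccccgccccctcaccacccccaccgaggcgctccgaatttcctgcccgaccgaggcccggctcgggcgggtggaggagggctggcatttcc
Tal1 +40: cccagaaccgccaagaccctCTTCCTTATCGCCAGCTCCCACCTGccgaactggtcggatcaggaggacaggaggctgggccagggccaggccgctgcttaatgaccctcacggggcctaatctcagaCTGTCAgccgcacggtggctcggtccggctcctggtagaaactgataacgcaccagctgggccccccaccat
Lmo2 -25: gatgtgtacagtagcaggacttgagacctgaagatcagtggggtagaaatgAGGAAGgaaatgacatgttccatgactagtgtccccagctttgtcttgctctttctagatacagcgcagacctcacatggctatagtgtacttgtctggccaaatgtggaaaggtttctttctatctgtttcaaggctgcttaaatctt
Lmo2 -12: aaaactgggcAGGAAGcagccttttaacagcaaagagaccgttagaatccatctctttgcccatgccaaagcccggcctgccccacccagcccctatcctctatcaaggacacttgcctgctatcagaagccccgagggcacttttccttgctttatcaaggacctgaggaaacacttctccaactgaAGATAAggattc
Meis1 +48: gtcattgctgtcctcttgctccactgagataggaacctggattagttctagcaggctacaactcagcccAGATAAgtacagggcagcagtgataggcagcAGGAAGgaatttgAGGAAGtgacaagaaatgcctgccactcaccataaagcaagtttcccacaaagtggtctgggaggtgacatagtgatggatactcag

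Every one of the 9 genes had a promoter peak, and 6 of them had at least 10 peaks. Mecom and Meis1 had 18 peaks each, Lmo2 14, Hlf 13, Lyl1 12, Gfi1 10, Tal1 6, Gfi1b 6 and Ldb1 4. The median was 12 peaks per gene, against 3 over all genes with a peak. At least 10 peaks were found for 10.5% of all genes. Ldb1, the broadly expressed cofactor, was nearest to the typical gene, since 41.2% of genes had as many peaks or more. For Tal1 and Gfi1b this share was 24.5%. At 18 peaks, Mecom and Meis1 were matched or exceeded by 2.55% of genes.

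**Figure D1:**
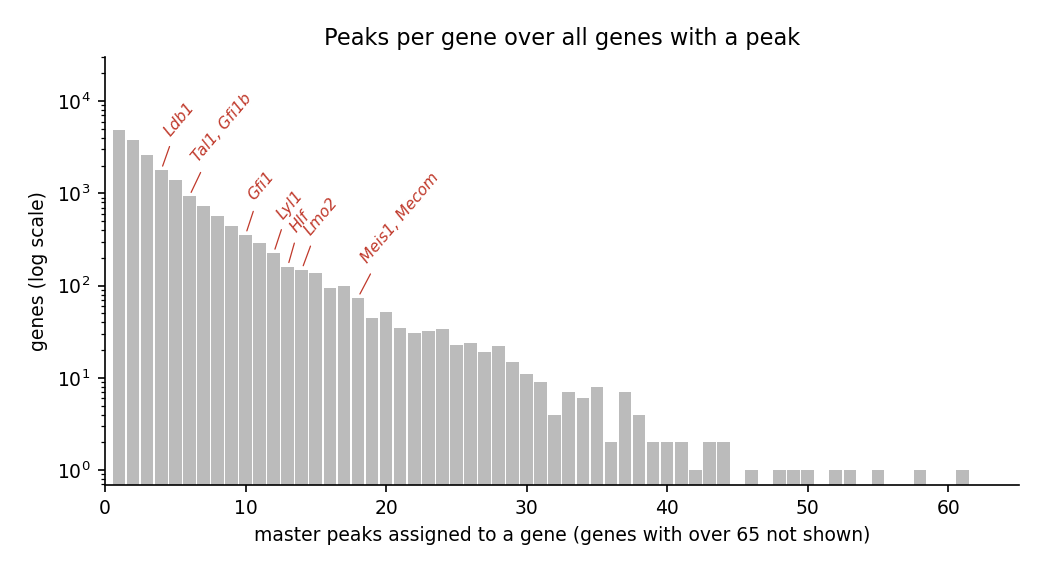
Number of genes (log axis) by the number of master peaks assigned to each, over the 19040 genes with a peak. The 9 genes are marked at their own counts, from 4 peaks for Ldb1 to 18 for Meis1 and Mecom.

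A gene far from other TSSs can be assigned peaks from a longer stretch, so the count was set beside the density around each gene. How far the counts depend on this was not tested. Within 100 kb of the RefSeq Select TSS, the representative start of each gene, there were 34 peaks for Lmo2, 28 for Lyl1, 23 for Gfi1b, 20 for Tal1, 16 for Ldb1, 15 for Gfi1, 14 for Hlf and 12 each for Meis1 and Mecom. The median over 20971 Select TSSs was 12, and 50.1% had at least 12 peaks. The order was therefore different from that of the assigned peaks. Lmo2 and Lyl1 lay in dense surroundings, which 1.32% and 4.69% of TSSs matched or exceeded. Meis1 and Mecom were at the median. The neighboring Select TSSs of Meis1 were 905473 bp upstream and 1065094 bp downstream. Those of Mecom were 90111 bp upstream and 1427228 bp downstream.

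By class, 52 of the 101 peaks were intronic, 28 intergenic and 12 promoter peaks, centred no more than 500 bp from a TSS. The other 9 were in exons, untranslated regions, gene ends or the promoter class beyond 500 bp. Introns held 51.5% of the peaks (95% Wilson interval 41.9 to 61.0, counting error only), against 40.5% of the whole list. Intergenic peaks made up 27.7% (19.9 to 37.1), against 37.6%. Promoter peaks made up 11.9% (6.93 to 19.6), against 15.6%, and the remaining classes 8.91%, against 6.22%. Mecom alone held 16 of the intronic peaks, so the intronic share rests in large part on that gene.

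**Figure D2:**
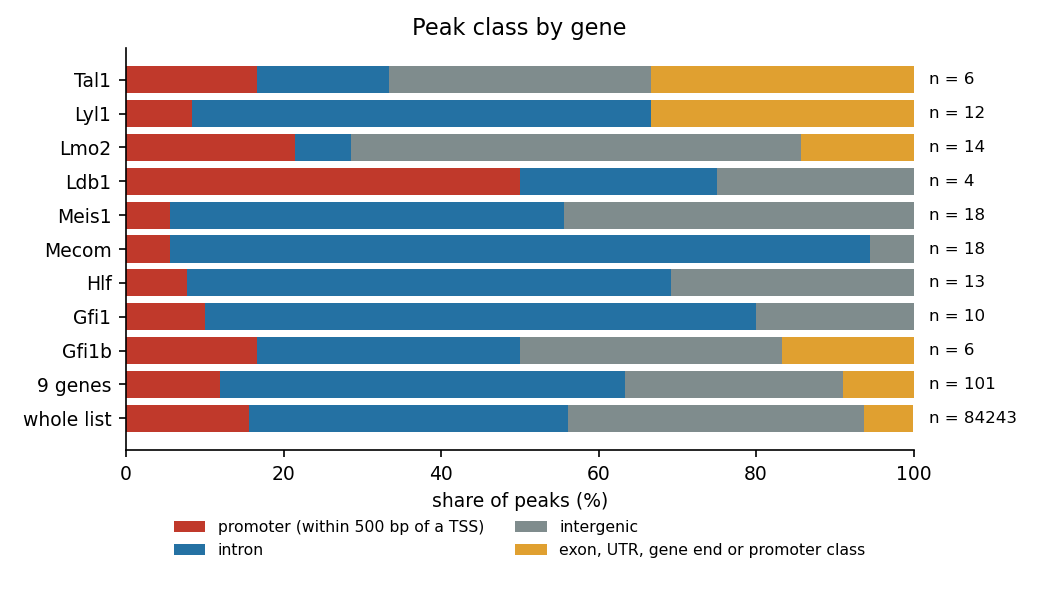
Share of peaks in each class (%) for each gene, for the 9 genes together and for the whole list, with the number of peaks at the right. Mecom is almost wholly intronic (16 of 18 peaks), whereas Lmo2 is mostly intergenic (8 of 14).

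Peaks of these genes lay about as far from a TSS as other peaks. The median distance was 15961 bp, against 16023 bp for the list, and 58.4% were over 10 kb away, against 60.0%. Of the intronic peaks, 26.9% (14 of 52) were in an intron of a different gene, which is near the 27.9% of the list. Another peak lay within 1 kb of 22.8% of the 101 peaks (15.7 to 31.9), against 13.2%. Both peaks of a close pair are counted, so they are not independent and this interval is too narrow. Lmo2 gave 7 of these 23 peaks, and Meis1, Mecom and Ldb1 gave none. Fewer of the 101 peaks lay on an annotated repeat, 7.92% (4.07 to 14.9) against 15.1%. A CpG island was the deposited detailed label at 5.94% (2.75 to 12.4), against 2.21%. No peak of these genes in the promoter class of the annotation had this label, not even an Ldb1 peak with 71.1% GC. Islands at promoters can therefore be missed. Median GC content was 61.1% in the promoter peaks and 49.1% in the others.

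**Figure D3:**
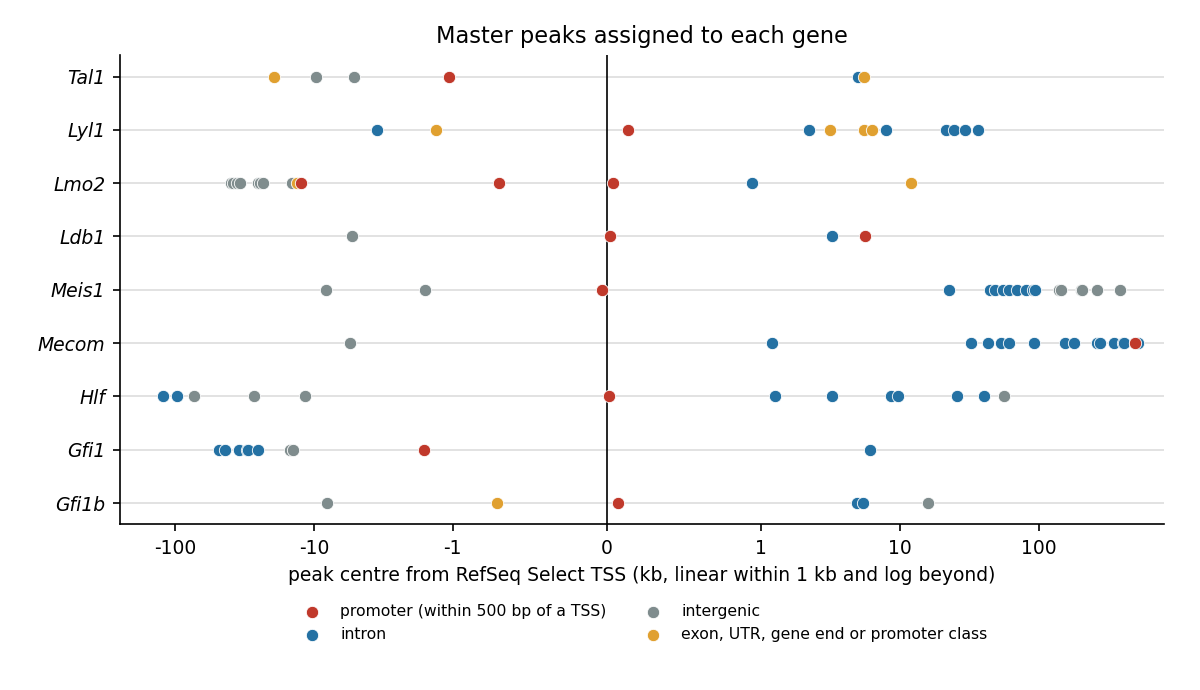
Centre of each of the 101 peaks from the RefSeq Select TSS of its gene (kb, linear within 1 kb and logarithmic beyond), colored by class. Lmo2 and Gfi1 peaks lie mostly upstream, Meis1 and Mecom peaks mostly downstream, and the Mecom promoter peak lies at 496548 bp.

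Promoter peaks marked particular start sites of these genes. A gene with a peak had a promoter peak in 64.5% of cases over the whole list, and 4.15% of genes had 2 or more. Among the 9, Lmo2 had 3 and Ldb1 had 2. The curated RefSeq transcripts of the 9 genes start at 17 positions, and 12 of these had a peak centre within 500 bp. All 9 genes had at least 1 such start, compared with 53.7% of genes with curated transcripts. That set was not limited to genes with a peak, so the 64.5% above is the closer comparison. For the Select TSS alone the count was 6 of 9, near the 58.9% of all Select TSSs.

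The 3 genes whose Select TSS had no peak within 500 bp were Tal1, Gfi1 and Mecom, and each had a peak at another start. The Tal1 promoter peak (chr4:115056500-115056998) was centred 323 bp downstream of the upstream start, promoter 1a, and 1062 bp from the Select TSS. It lay in intron 1 at a CpG island. The Gfi1 promoter peak (chr5:107725697-107726195) was 141 bp from the upstream start and 1603 bp from the Select TSS. The Mecom promoter peak (chr3:30012962-30013460) was 7 bp from the start of the short EVI1 form, whereas the starts of the long forms, far upstream, had their nearest peak at 1117 bp and 1201 bp. That nearest peak lay in intron 1 at a CpG island and had the highest GC content of the 101 peaks, 74.1%.

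In the other genes the peaks sat on the Select TSS. Centres were 14 bp from it for Hlf, 21 bp for Ldb1, 34 bp for Meis1, 39 bp for Lmo2, 74 bp for Gfi1b and 136 bp for Lyl1. These peaks lie at chr11:90390654-90391152 (Hlf), chr19:46045041-46045539 (Ldb1), chr11:19018754-19019252 (Meis1), chr2:103970077-103970575 (Lmo2) and chr2:28621659-28622157 (Gfi1b). The second Ldb1 promoter peak was 46 bp from an internal start, and the third Ldb1 start had no peak nearer than 2597 bp. All 3 Lmo2 starts were marked, at 145 bp for the distal start, 29 bp for the middle one and 39 bp for the proximal one. Lmo2 was the only one of the 9 with a peak at each of 3 starts.

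Tal1 had 6 peaks, at -19381, -9750, -5143, -1062, +4973 and +5485 bp from the Select TSS. The most distant lay in exon 15 of 17 of Stil, the neighbouring gene. Another 14 peaks within 100 kb carried other names, 7 of them Pdzk1ip1. These 7 were the nearest peaks downstream of Tal1.

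The Tal1 elements are named by their distance from promoter 1a, which lies 1385 bp upstream of the Select TSS. The -4 element is active in blood progenitors and endothelium, and +40 is the erythroid enhancer. From promoter 1a, peaks were centred at -3758 and +39480 bp, or 242 and 520 bp from the nominal positions. From the Select TSS, the same peaks were 1143 and 1905 bp off. The +40 peak had the Gene Name Pdzk1ip1 and is therefore not among the 101 peaks.

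These Tal1 elements differed in sequence. Of the 9 peaks at known elements whose sequence is described, the +40 peak was the only one with an E-box with GATA, CAGGTGGGAGCTGGCGATA on the minus strand, 65 bp from the centre. This match abuts an AGGAAG match in the sequence above, so both are in 1 run of capitals. Its GC content was 67.9%, against 59.9% at -4. The -4 peak held no AGGAAG but had the shorter ETS core GGAA 9 times. This does not set it apart, since the Meis1 +48 peak also had GGAA 9 times and 99.5% of all peaks held it.

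Lyl1, the paralog of Tal1, had 12 peaks from -3542 to +36363 bp, although the gene spans 3.26 kb. Only 3 lay within the gene. The promoter peak (chr8:84701344-84701842) was in the first exon. It held AGATAA 1 time, 82 bp from the peak centre, and AGGAAG 1 time, at 134 bp. ETS and GATA sites are the known features of this promoter, but whether these matches are those sites was not checked. AGATAA was in 24.1% of all peaks and AGGAAG in 62.4%. Of the 7 intronic peaks, 5 were in introns of Nfix and 1 in an intron of Trmt1. The most distant, at +36363 bp, was in intron 2 of Nfix. Within 100 kb a further 16 peaks carried other names, 9 of them Ier2.

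Lmo2 had 14 peaks, of which 8 were intergenic and upstream. The upstream peaks formed groups, with 4 peaks between -39409 and -34394 bp, 3 between -25129 and -23211 bp, and 3 between -14396 and -12437 bp. A peak at +939 bp was in intron 2 and a last one at +12083 bp was at the gene end. Of the 14, 7 had another peak within 1 kb. Another 20 peaks within 100 kb had other names, 13 of them Lincred1, a noncoding gene upstream. Assigned by the nearest Select TSS, Lmo2 would have 24 peaks.

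The Lmo2 elements at -75, -70, -25, -12 and +1 kb act together as an array in blood and endothelium. Peaks were centred 0 bp from the nominal -75 position, 129 bp from -25, 437 bp from -12 and 61 bp from +1. The nearest peak to -70 was 1645 bp away. The nominal positions are rounded to 1 kb, so a gap of 0 bp is no more exact than a larger one under 1 kb. The -75 peak (chr2:103895038-103895536) had the Gene Name Lincred1. The -12 peak was also the distal promoter peak, 145 bp upstream of that start, so enhancer and promoter cannot be told apart there. It held GATA, ETS and E-box strings, the most families of the 4 Lmo2 peaks at elements.

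Ldb1 had 4 peaks, at -5333, +21, +3253 and +5644 bp from the Select TSS. Promoters accounted for 2 of them and intron 1 for 1. The intergenic peak at -5333 bp was on an MLTR11B repeat, a long terminal repeat. An Lmo2 peak at -14396 bp was on the same repeat family, which was annotated at 51 peaks in the whole list. All 4 Ldb1 peaks held AGGAAG and none held AGATAA. Within 100 kb, 12 peaks carried 6 other names.

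**Figure D4:**
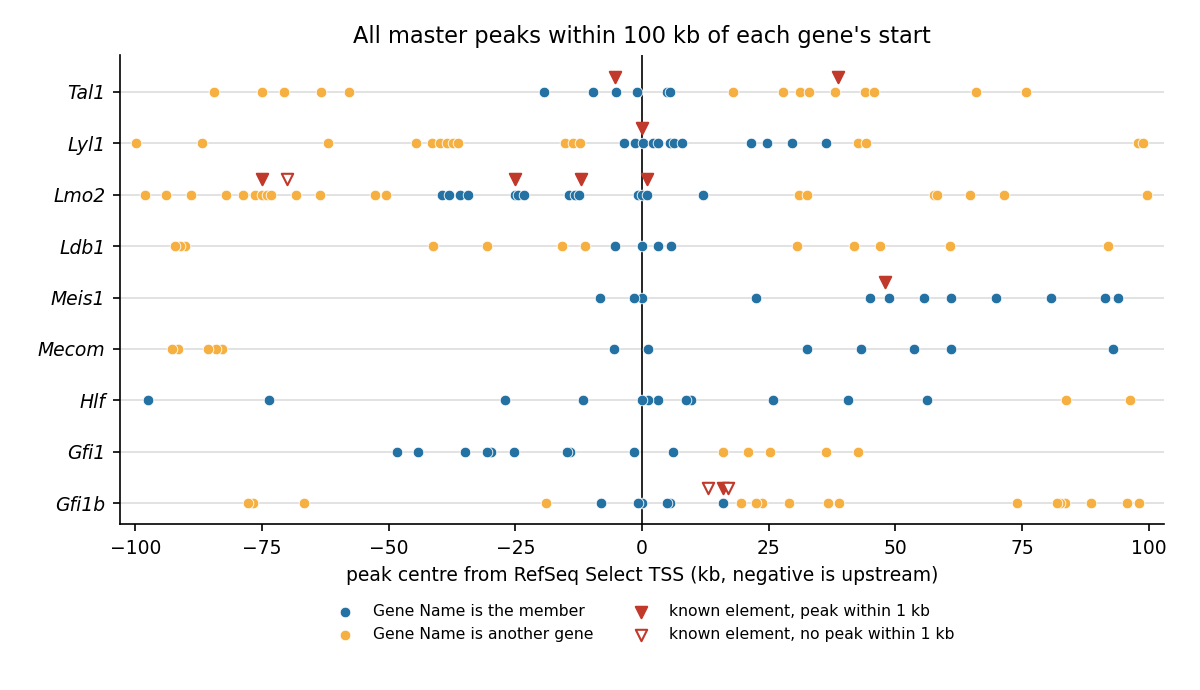
All master peaks within 100 kb of each Select TSS (kb, negative is upstream), colored by whether the Gene Name is that gene, with triangles at the nominal positions of known elements (filled with a peak within 1 kb, open without, Tal1 measured from promoter 1a). The filled triangles at Tal1 +40 and at Lmo2 -75 stand over peaks with another Gene Name.

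Meis1 had 18 peaks from -8244 to +386451 bp, although its body spans 139 kb. Introns held 9 peaks, with 1 in intron 6, 5 in intron 7 and 3 in intron 8 of 11. Introns 1 to 5 had none. The body held 6.47 peaks per 100 kb, against 3.09 over the whole genome, which includes stretches without genes. Among the 9 genes only the Mecom body held fewer per length. All 12 peaks within 100 kb of the TSS had the name Meis1, the only one of the 9 genes for which this was so. Of the 8 intergenic peaks, 6 lay downstream, at +141188 to +386451 bp.

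The +48 enhancer of Meis1 is known from hematopoietic progenitors. A peak in intron 7 (chr11:18969903-18970401) was centred at +48817 bp, 817 bp from the nominal position and the largest gap among the elements with a peak. It held 2 AGATAA and 4 AGGAAG matches, the most ETS matches of these 9 peaks, with AGGAAG 3 and 16 bp and AGATAA 28 bp from the centre. An intron 6 peak at +22465 bp (chr11:18996255-18996753) was the only one of the 101 with all 5 of the GATA, ETS, RUNX, E-box and MEIS strings, which 0.928% of all peaks had. It was on a B3 repeat.

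Mecom had 18 peaks over 558 kb, 9 of them in intron 1 and 5 in intron 2. The others were 1 each in introns 3 and 5, at the EVI1 start and at -5459 bp. The most distant was at +518010 bp, in intron 5. Per length this was not dense. The Mecom body held 3.05 peaks per 100 kb, the lowest of the 9 genes and close to the 3.09 of the genome. GC content ranged from 31.9% to 74.1%, the widest range of the 9 genes. No element was placed for Mecom, Hlf, Gfi1 or Ldb1, because the list of elements used here held no distance for them. This does not mean that these genes lack known enhancers.

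Hlf had 13 peaks from -122030 to +56164 bp. Of these 6 were in its own introns, 1 in intron 1 and 5 in intron 2 of 3. The most distant was in intron 16 of 17 of Stxbp4, with another Hlf peak in intron 17. The 54.4 kb body held 12.9 peaks per 100 kb. CpG islands were annotated at -27130 and +1257 bp, and neither peak held any of the 5 strings. The HLF string TTANGTAA was not found in the Hlf peaks, which says only that these letters are not in these windows.

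Gfi1 had 10 peaks, and 8 of them were upstream of the promoter peak. Of these, 6 lay in introns 16 and 17 of the neighbouring gene Evi5, at -48323 to -25331 bp, and 2 were intergenic. Of the 10 peaks, 9 held CAGATG and 6 held AGATAA, the highest share of each among the 9 genes, picked out after the values were seen. The peak at -34913 bp (chr5:107759007-107759505) held 2 E-box with GATA matches, CAGTTGGACACGAGATA on the minus strand and CAACTGCATCTGTGAGATA on the plus strand. They share 6 bases, the E-box itself, so that 1 E-box had a GATA on either side.

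Gfi1b had 6 peaks, from -8078 to +15961 bp, of which 2 were in intron 1. A further 17 peaks within 100 kb carried other names, mainly Ralgds (7) and Gtf3c5 (6). Its known hematopoietic elements are at +13, +16 and +17 kb. The peak at +15961 bp (chr2:28605772-28606270) was 39 bp from the nominal +16 position and 1039 bp from +17. No other peak was near, and +13 was 2961 bp from it. This peak held AGATAA 110 bp from its centre and TGTGGT, the RUNX string, at 190 bp.

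In all, 13 elements in 5 genes were compared with the list. Measured from the Select TSS, 7 had a peak centre within 1 kb. Measured from promoter 1a for Tal1, an origin chosen after seeing the data, the count was 10, with gaps of 0 to 817 bp. Of these 10 peaks, 7 had the Gene Name of the gene and 3 that of a neighbor. The exact coordinates of the elements were not used here, so a match says that a peak lies near the named distance. How often other positions near these genes lie within 1 kb of a peak was not computed. These counts therefore have no background to judge them against. Most elements were of Lmo2, Tal1 and Gfi1b, and Lmo2 alone had 34 peaks within 100 kb of its Select TSS. The peaks at Lmo2 -12 and Lyl1 were promoter peaks, and the Lyl1 element is the promoter itself. The nominal Lmo2 +1 position also lies within 1 kb of the promoter peak centred 39 bp from the Select TSS. A promoter peak alone would thus have met the rule at these elements.

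Across the 101 peaks, the share with a motif string differed from that of the list in either direction by string. Each string was searched on both strands of the whole 499 bp peak. AGATAA was in 33 peaks or 32.7% (24.3 to 42.3), against 24.1% of all peaks. Among non-promoter peaks alone it was in 33.7%, against 26.9%, a smaller gap. CAGATG (E-box) was in 35.6%, against 33.6%, AGGAAG (ETS) in 66.3%, against 62.4%, and TGTGGT (RUNX) in 38.6%, against 38.9%. These 3 were close to the background. The MEIS string TGACAG was less frequent, in 22.8% (15.7 to 31.9), against 34.0%.

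The E-box with GATA was in 9 peaks or 8.91% (4.76 to 16.1), against 4.01% of all peaks. These were 2 peaks each of Meis1, Mecom and Gfi1 and 1 each of Lyl1, Lmo2 and Hlf, and none was a promoter peak. A GATA in it can be part of an AGATAA match, so both counts overlap. A broader set of 4 GATA strings, which lets the first base be A or T and the last A or G, was chosen after seeing the data and matched 62.4%, against 53.7%. The core GGAA matched 99.0%, against 99.5%, and so separates nothing.

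Of the other strings, those for GFI1 and AP-1 were closest to the background. AAATCNC, for GFI1, was in 17.8%, the same as the 17.8% of all peaks, and TGANTCA, for AP-1, in 16.8%, against 15.3%. TTGCNNAA, for CEBP, was in 15.8% (9.99 to 24.2), against 19.3%, and the CTCF consensus in 5.94%, against 7.68%. TTANGTAA, for HLF, was in 2 peaks, 1 of Lmo2 and 1 of Meis1, or 1.98% (0.545 to 6.93), against 4.31%. At least 3 of the 5 strings for GATA, ETS, RUNX, E-box and MEIS were in 32.7%, against 30.2%. Of the 17 peaks with the AP-1 string, 8 were Meis1 peaks.

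**Figure D5:**
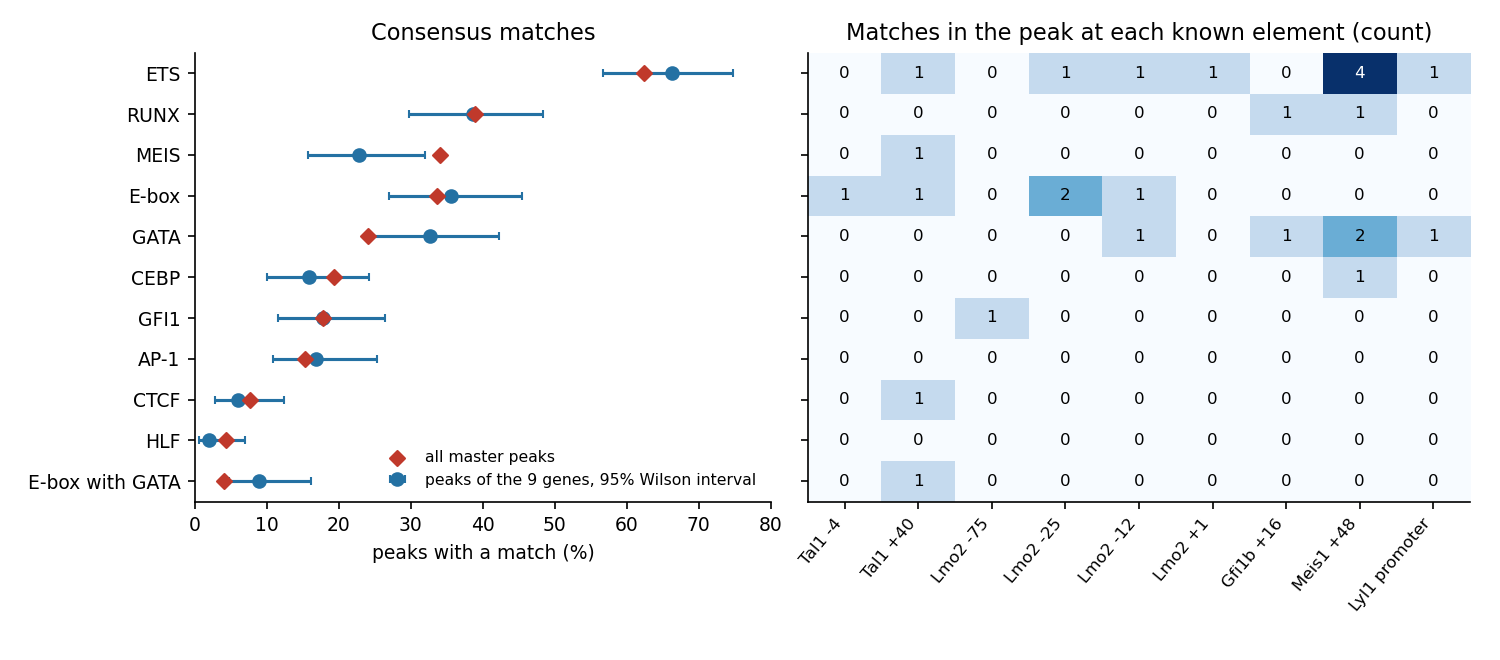
Left, share of peaks (%) with a consensus match for the 9 genes (circles with 95% Wilson intervals, counting error only) and for all master peaks (diamonds). Right, number of matches in the whole peak at each of 9 known elements with a peak, where the Tal1 +40 peak is the only one with an E-box with GATA and Meis1 +48 has 4 ETS matches.

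Genes that work with these factors were also in the list. All 30 partners, relatives and cofactors had a peak. The share of all genes with any peak was not computed, so this count has no background to judge it against. Of the 30, 26 had a promoter peak and 13 had at least 10 peaks, where 64.5% and 10.5% of all genes with a peak did. The groups that follow were formed after the data were seen, so differences between their medians are description only. The 14 partners in DNA-bound complexes had a median of 17.5 peaks, and 9 had at least 10. They include the ETS factors Fli1, with 38 peaks, and Erg, with 29, and Runx1, a founding factor of definitive HSCs, with 35. The GATA factors had 4 peaks (Gata2) and 3 peaks (Gata1). The 10 family relatives had a median of 4 peaks, from 1 for Prdm16 to 29 for Lmo4. The 6 cofactors of MEIS1 and the GFI factors had a median of 2, with 1 each for Hoxa9 and the LSD1 gene Kdm1a. As for the 9 genes, a gene far from other TSSs can be assigned peaks from a longer stretch, which was not tested.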

How the data were processed

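Reads were mapped to mm10 and peaks called by the authors with the ENCODE pipeline, leaving out multimapping reads. They concatenated the optimal Irreproducible Discovery Rate list of each cell type and kept non-overlapping peaks with chromVAR over all replicates. Peaks were annotated with HOMER (4.10.2 in the submitters' processing notes). Start, end and distance to the TSS were used in bp as deposited. The peak score that the authors deposited is 0 in every peak and ranked nothing. All peaks are 499 bp wide.

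A promoter peak had a deposited distance of at most 500 bp. Starts, introns and sequence came from NCBI RefSeq on GRCm38.p6. Known elements were placed by their usual distance in kb, from general knowledge. Motifs were exact strings. An element and a partner gene enter the counts but are not reported singly here. Shares have 95% Wilson intervals. No test was made, since the list has no values per sample.

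All 9 genes are named. Peaks described singly were promoter peaks, peaks at known elements and the most distant peak of each gene. Other single peaks, neighboring genes, the E-box with GATA, the count of 5 families, the 1 kb neighbor count and the groups of partners were chosen after seeing the data. The genes and lists were chosen with earlier results of these data known. Alternatives changed the assignment, promoter limit, annotation, element origin and tolerance, and motif match. Motif search and assignment were tested on simulated data. Scripts ran in Python 3.11.15 with pandas 2.3.3 and numpy 2.4.6, intervals with scipy 1.17.1 and figures with matplotlib 3.10.9.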

Additional observations from a re-analysis of the deposited data

How the results depend on the processing

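The 9 genes had 101 peaks by Gene Name, 123 by the nearest Select TSS, 172 by the basal plus extension rule and 174 within 100 kb of the Select TSS, where a peak can count for a neighbor too. Known elements with a peak rose from 7 to 11 of 13 within 2 kb, where a peak counts for its nearest element only, so that Gfi1b +17 does not count beside +16. The count was also 11 with any curated TSS as origin, where Lmo2 -70 was matched from the distal start. At least 3 of the 5 motif families were in 33 whole peaks and in 7 central windows of 200 bp, a shorter sequence. Of the 30 partner genes, 26 had a promoter peak within 500 bp and 15 within 100 bp. The E-box string was above its background over all peaks (35.6% against 33.6%) and below it in non-promoter peaks (36.0% against 36.5%). Of the alternative counts, 41 were within 1.5 times the reported count and 32 were not, 26 of them for single genes or motifs. With a score of 0 throughout and 1 pooled list, neither a stricter score nor leaving out a replicate could be tried. No paired analysis was possible because the list holds no values per sample. Depth is unknown.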
